A study of Mus musculus with 8 samples.

Results

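The transcripts of a stable mouse B cell line named for the microRNA miR-148a were compared with those of its control line, both without stimulation. The comparison took 4 libraries of the 8 in the series, 2 from WEHI-miR-148a and 2 from WEHI-control, chosen by their labels and paired by sequencing run, and covered all genes of the deposited count table. Both lines are labelled as immature B lymphocytes, and their names carry the prefix WEHI. All 4 groups of the series were grown in the same medium, and the other 4 libraries came from both lines after 14 h of anti-IgM at 2 ug/ml, an antibody that crosslinks the B cell receptor. These 4 libraries helped to choose the genes tested, to scale the counts and to estimate the spread, and they show the line difference a second time. With the 4 unstimulated libraries alone, 11020 rather than 11291 genes were tested. The labels do not say how the microRNA was introduced, what the control line carries or whether either line is a single clone. A difference between the lines can therefore not be told apart from a difference between 2 separately derived cultures.

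A microRNA is a short RNA that guides an Argonaute protein to messenger RNAs, mainly through pairing of its seed, bases 2 to 8, with sites in the 3' UTR. Bound messengers are repressed and often lose abundance, usually by modest amounts. In B cells, miR-148a is known for its place in tolerance of immature cells and in plasma cell differentiation. It shares its seed with 2 other microRNAs, so the sites counted below belong to all 3. The mature sequences are shown because every site described below is defined by them, with the seed in capitals, as RefSeq gives them for GRCm38.p6. The mature miR-148a lies at chr6:51269829-51269850 on the minus strand.
mmu-miR-148a-3p: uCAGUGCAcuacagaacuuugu
mmu-miR-152-3p: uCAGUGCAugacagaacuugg
mmu-miR-148b-3p: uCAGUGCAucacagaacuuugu

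Mature microRNAs have no polyA tail and escape these libraries, so the name of the line was not checked against its microRNA. For Mir148a the table lists a single read, 1 count in a miR-148a library without stimulation, and 0 in the other 7 libraries. The 4 unstimulated libraries held 11391702 to 18660373 counts, and 3 counts corresponded to 0.166 to 0.271 CPM in them. CPM is the usual scaling of counts to the library total, here after a correction for composition (TMM). A B lineage marker was present in both lines: Cd79a, a signalling chain of the B cell receptor, stood at 582 and 590.2 CPM in the control and 644 and 662 CPM in the miR-148a line. The T cell, myeloid, erythroid and fibroblast marker lists each summed to at most 2.08 CPM in any of the 4 libraries, while Krt18 of the epithelial and Sdc1 of the plasma cell list were higher in the miR-148a line, as described at the end.

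Without stimulation, 823 of 11291 tested genes (7.29%) differed between the lines, 442 higher (3.91%) and 381 lower (3.37%) in the miR-148a line. The test was edgeR's quasi-likelihood test on all 8 libraries with the run as a block, with an adjusted p under 0.05. On simulated libraries this fit made more false calls than that threshold allows in most draws, so calls with an adjusted p near 0.05 are the least certain. Most differences were modest. The median of the called genes was 0.53 on the log2 scale for those higher and 0.45 for those lower, with 82 and 36 genes past 1 log2 unit. Across all genes, the differences in run 1 and run 2 had a Pearson correlation of 0.47 (n = 11291 genes, which are not independent, and whose libraries share a run), and of 0.69 over the 5626 genes whose mean log2 CPM reached 5. Without the block, only 55 genes passed (0.487%), 28 higher and 27 lower, and every one of them was among the 823. No called gene changed sign in that fit, and 1286 genes had an unadjusted p under 0.05. The largest part of the spread in the 4 libraries followed the run: the first principal component separated the runs (48.4% of the variance) and the second the lines (37.9%). The run coincides with the replicate number in every group, so it cannot be told apart from differences of culture or preparation between replicates. Leaving out replicate 1 of the miR-148a line, which compares that line through 1 library, left 94 calls.

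**Figure D1:**
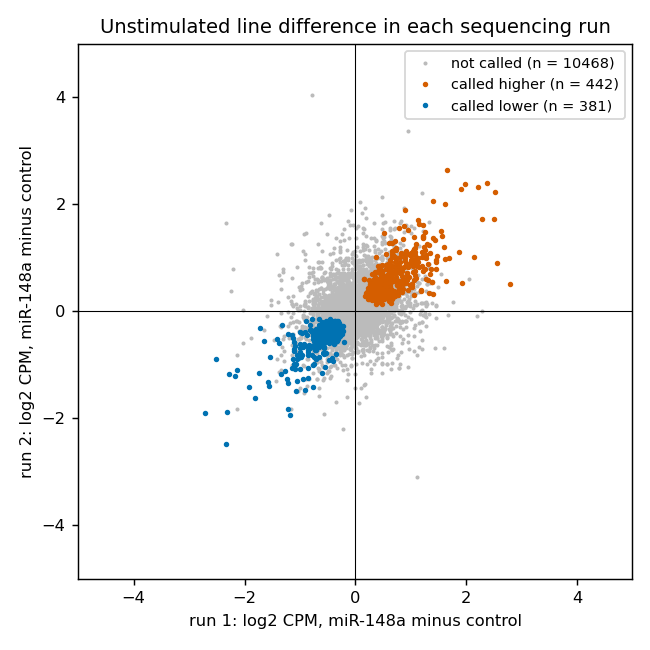
Line difference of each tested gene in run 1 (x axis) against run 2 (y axis), as log2 CPM of the miR-148a minus the control library, both unstimulated. Grey points are genes that were not called, and the 442 orange and 381 blue points are genes called higher and lower. The called genes lie in the quadrants where both runs have the same sign, which the selection itself favours, since they were called from these libraries.

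MHC class II genes were lower in the miR-148a line. These genes encode the surface proteins that present peptides to helper T cells, with the chaperones that load them, and are a hallmark of B cells. Over all genes tested, 3.37% were lower and 3.91% higher. Of the 11 genes in the list 10 were tested, and 8 fell and none rose. The list's median log2 fold change was -1.49, against 0.01 over all genes tested. H2-Ab1, a class II beta chain, stood at 18.3 and 17.4 CPM in the control libraries of runs 1 and 2 and at 3.52 and 4.61 CPM in the miR-148a libraries, a log2 fold change of -2.18 ± 0.26 (SE, adjusted p = 0.000244). Ciita, the transactivator that switches on class II transcription, stood at 34.97 and 32.9 CPM in the control and 7.59 and 14.2 CPM in the miR-148a line, a difference of -1.71 ± 0.23 on the log2 scale (adjusted p = 0.000552). In both genes each control library lay above each miR-148a library. The libraries of the lines did not overlap, in either direction, in 5001 of the 11291 genes tested (44.3%). Among called genes this held for 428 of the 442 higher and 372 of the 381 lower.

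The alpha chain gene H2-Aa was at 46.2 and 36.5 CPM in the control and 9.42 and 16.1 CPM in the miR-148a line (-1.80 ± 0.28, adjusted p = 0.00149), and the beta chain gene H2-Eb1 at 103 and 67.1 and 23.4 and 31.1 CPM (-1.69 ± 0.25, adjusted p = 0.00104). Genes of the peptide exchange factor DM fell too, with log2 fold changes of -1.84 ± 0.30 for H2-DMb1, -1.29 ± 0.17 for H2-DMa and -0.95 ± 0.26 for H2-DMb2. The smallest change among the called members was in Cd74, the invariant chain that escorts class II molecules, at 884 and 658 CPM in the control and 479 and 487 CPM in the miR-148a line (-0.69 ± 0.17, adjusted p = 0.0263). The genes of DO, which dampens DM, did not pass: H2-Ob had a log2 fold change of -1.21 ± 0.42 and H2-Oa of -0.09 ± 0.26. H2-Eb2, with at most 0.541 CPM, was not tested. Outside the list, H2-Ea-ps, annotated as a class II pseudogene, fell from 116 and 80.4 CPM in the control to 17.6 and 21.4 CPM in the miR-148a line (-2.38 ± 0.28, adjusted p = 0.00019). Without the run block the list's median was -1.46, but 0 of the 10 members passed (adjusted p = 0.0585 for H2-Ab1 and 0.116 for Ciita). Leaving out replicate 1 or replicate 2 of the control line gave 5 or 9 called members, and doing so in the miR-148a line gave 3 or 6, with medians from -1.03 to -2.02.

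**Figure D2:**
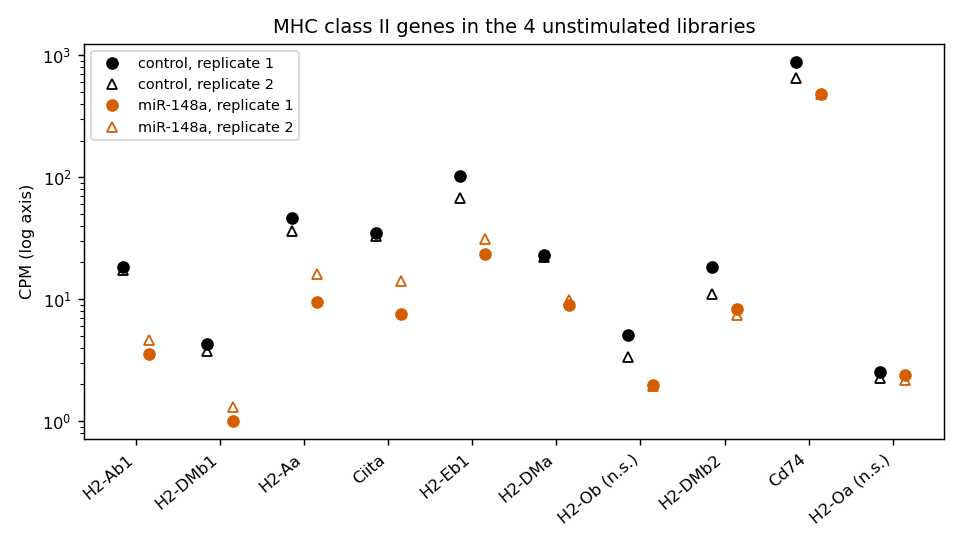
CPM on a log axis of the 10 tested MHC class II genes in the 4 unstimulated libraries, filled circles for replicate 1 (run 1) and open triangles for replicate 2 (run 2), black for the control and orange for the miR-148a line. In all 8 called genes the orange points lie below the black ones, while those of H2-Oa (n.s., not called) overlap.

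Class II promoters are known for an X box and a Y box, elements on which a complex assembles that recruits CIITA. Short stretches are shown for H2-Eb1, H2-DMb1, H2-DMb2 and H2-Aa, which fell, and for H2-Oa, which was not called, with the searched letters in capitals. The Y box was searched as CTGATTGG and the core of the X box as AACNGATG, on both strands, in RefSeq promoter windows of 300 bases around a gene start (GRCm38.p6). The letters do not overlap each other. Of 32851 windows, 4.10% held the Y box letters, 2.32% the X box letters and 0.0944% both. For 8 of the 11 genes 9 windows were matched, and those of H2-Eb1 and H2-Eb2 held both, 19 bases apart. Those of H2-Aa and H2-Oa held the Y box letters alone, those of H2-DMb1 and H2-DMb2 the X box letters alone, and those of H2-DMa and H2-Ob neither. A match is a description of these letters only. H2-Oa held the same Y box letters as H2-Aa. The H2-Eb1 stretch lies at chr17:34305766-34305824 on the plus strand, that of H2-DMb1 at chr17:34153087-34153118 and that of H2-DMb2 at chr17:34145116-34145147, both on the plus strand, that of H2-Aa at chr17:34287855-34287886 on the minus strand and that of H2-Oa at chr17:34092321-34092352 on the plus strand.
H2-Eb1: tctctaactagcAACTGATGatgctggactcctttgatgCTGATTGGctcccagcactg
H2-DMb1: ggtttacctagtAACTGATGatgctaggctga
H2-DMb2: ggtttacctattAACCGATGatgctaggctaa
H2-Aa: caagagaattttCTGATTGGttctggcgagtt
H2-Oa: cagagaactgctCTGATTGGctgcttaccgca

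Genes of class I antigen processing that lie among the class II genes were lower by smaller amounts. Over all genes tested, 3.37% were lower and 3.91% higher. Of 14 tested members of the class I and peptide loading list 3 fell and none rose, with a median of -0.17. The 3 were Tap1 (-0.50 ± 0.09, adjusted p = 0.00326) and Tap2 (-0.34 ± 0.08, adjusted p = 0.0157), the transporter that carries peptides into the endoplasmic reticulum, and Psmb8 (-0.46 ± 0.07, adjusted p = 0.00203), a subunit of the immunoproteasome. Beta-2 microglobulin, encoded by B2m, stood at 260.1 and 199 CPM in the control and 250.0 and 220.2 CPM in the miR-148a line, and Tapbp at 117 and 142.9 and 114 and 139 CPM. Neither passed, nor did Nlrc5, the class I transactivator gene, at 0.277 and 0.271 and 0 and 0.0769 CPM. None of the 3 called genes passed without the block. When 20 neighbouring tested genes were taken at a time along each chromosome, the lowest median of 10826 windows (-0.40) fell on this stretch of chromosome 17, among others in the window from H2-Oa to Agpat1 (chr17:34092340-34613449), with 10 genes lower and 0 higher. The 1st and 99th percentiles of all windows were -0.13 and 0.16. The 10 lower genes of that window are class II and class I genes already named above, so the window restates their calls. Ciita on chromosome 16 and Cd74 on chromosome 18 lie outside it.

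Genes were grouped by the miR-148 sites in their 3' UTR, and the share called lower was highest with an 8mer, the longest site. Sites were read from the longest annotated 3' UTR of each gene (GENCODE M21, GRCm38) as TGCACTGA (8mer), TGCACTG (7mer-m8) or GCACTGA (7mer-A1), and a gene took its best class. Of 468 genes with an 8mer, 73 were lower (15.6%) and 17 higher (3.63%), while of 8377 genes with no site 204 were lower (2.44%) and 346 higher (4.13%). In the 7mer classes, 59 of 1199 genes with a 7mer-m8 (4.92%) and 43 of 785 with a 7mer-A1 (5.48%) were lower. Higher were 45 with a 7mer-m8 (3.75%) and 25 with a 7mer-A1 (3.18%). Medians moved little and not in the order of site length. They were 0.01 with no site, -0.02 with a 7mer-A1, -0.005 with a 7mer-m8 and -0.07 with an 8mer. The 8mer median was -0.07 in run 1 and -0.09 in run 2.

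Of the 379 lower genes with an annotated 3' UTR 19.3% held an 8mer, against 3.93% of the 433 higher genes and 4.32% of all 10829 tested genes with a 3' UTR. Longer 3' UTRs hold more sites by chance, and the median length was 2280 bases with an 8mer and 924 with no site. In 3 classes of 3' UTR length with equal numbers of genes, the shares of 8mer genes called lower were 23.5%, 15.6% and 14.2% from the shortest to the longest, and those of genes with no site 2.90%, 2.07% and 2.19%. Of the 468 genes with an 8mer 378 were not called. Without the block 7 genes with an 8mer were lower and 0 higher, and 9 with no site were lower and 23 higher. Leaving out 1 of the 4 unstimulated libraries brought the 8mer genes called lower to between 12 and 41, or 2.56% to 8.76%, and genes with no site to between 0.179% and 1.24%.

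**Figure D3:**
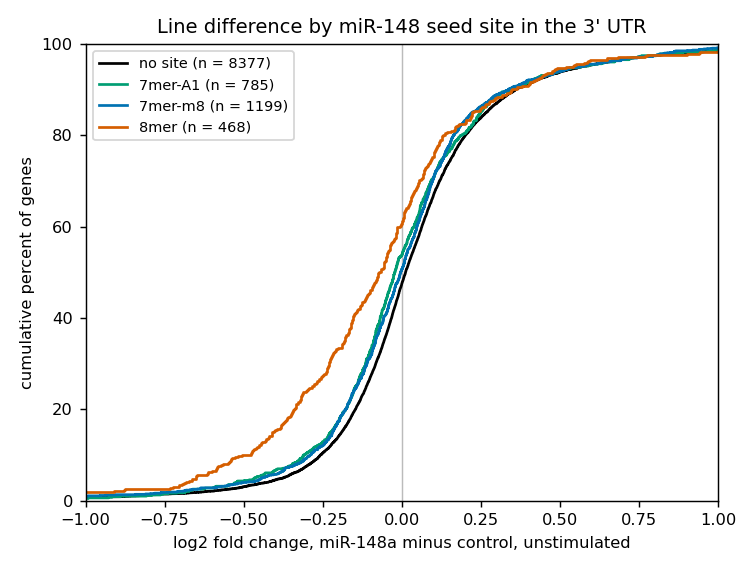
Cumulative percent of genes (y axis) up to each log2 fold change between the unstimulated lines, miR-148a minus control (x axis, shown from -1 to 1), for genes grouped by their best miR-148 seed site. The 8mer curve (n = 468) lies left of the curve of genes with no site (n = 8377) at negative values, and the curves meet at higher positive values.

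Celf2, which encodes a splicing and RNA-binding protein, had the largest fall among called 8mer genes whose mean log2 CPM reached 1. It went from 24.2 and 24.5 CPM in the control to 10.3 and 9.61 CPM in the miR-148a line (-1.28 ± 0.12, adjusted p = 5.67e-05). Arl6ip1, which encodes a membrane-shaping protein of the endoplasmic reticulum, fell from 195 and 190.1 to 90.4 and 95.7 CPM (-1.05 ± 0.08, adjusted p = 1.98e-05), and Bcat1, a branched-chain amino acid aminotransferase, from 77.4 and 78.1 to 36.3 and 36.8 CPM (-1.09 ± 0.12, adjusted p = 0.000128). In all 3 the libraries of each line lay close together and far from those of the other. The same held for Adam10, a protease that sheds surface proteins, at 239 and 231 CPM in the control and 145 and 139.9 CPM in the miR-148a line (-0.72 ± 0.07, adjusted p = 5.67e-05), and for the lysosomal peptidase gene Tpp1 at 45.3 and 43.6 and 22.7 and 25.8 CPM (-0.88 ± 0.10, adjusted p = 0.000182). These 5 genes also passed without the block, with adjusted p from 0.0189 to 0.0239. The other 3 of the 8 largest falls were in Rph3a, a Rab effector, Sgcb, a sarcoglycan, and Mgat5, a glycosyltransferase that branches N-glycans, with log2 fold changes of -1.27 ± 0.33, -0.88 ± 0.21 and -0.71 ± 0.13. They did not pass without the block (adjusted p = 0.264, 0.163 and 0.288).

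The 8mer sites of 4 of the 5 genes that passed both ways, and of Dnmt1 and Bcl2l11 described next, are shown in their 26-base surroundings so that they can be set beside the seed, with the site in capitals, on the transcript's strand in GRCm38. The reverse complement of the seed is followed by an A in each. The Celf2 site lies at chr2:6541303-6541328 (minus strand), that of Arl6ip1 at chr7:118119167-118119192 (minus), that of Bcat1 at chr6:144995395-144995420 (minus), that of Adam10 at chr9:70779982-70780007 (plus), that of Dnmt1 at chr9:20907487-20907512 (minus) and that of Bcl2l11 at chr2:128162395-128162420 (plus). Arl6ip1 also held 1 7mer-m8 and 1 7mer-A1 site, and Bcl2l11 held 2 7mer-m8 sites and 1 7mer-A1 site besides its 8mer. Of the class II genes above, Ciita held 1 7mer-m8 and 1 7mer-A1 site and H2-DMa 1 7mer-m8 site. H2-Ab1, H2-Aa, H2-Eb1 and H2-DMb1 held no site. Whether these sites have a part in the class II difference was not tested.
Celf2: gcttaggtgtgtgcTGCACTGAtcaa
Arl6ip1: agtttgtggatccaTGCACTGAtgct
Bcat1: ttcagttcacatcaTGCACTGAgatc
Adam10: tctgaagagatacaTGCACTGAactg
Dnmt1: cccagagccccacgTGCACTGAtgtt
Bcl2l11: cttcctttacgtttTGCACTGAtgaa

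Among 26 tested genes that the literature names as targets of miR-148a or its seed relatives, 6 were lower and 2 higher, with a median of -0.15. Over all genes tested, 3.37% were lower and 3.91% higher. Besides Arl6ip1, the lower genes were Tmed7 (-0.83 ± 0.08), a cargo receptor of the secretory pathway, the transcription factor gene Mitf (-0.74 ± 0.18), the phosphatase gene Cdc25b (-0.69 ± 0.12), the kinase gene Rock1 (-0.51 ± 0.07) and Dnmt1 (-0.38 ± 0.07). Dnmt1, the maintenance DNA methyltransferase, stood at 673 and 732 CPM in the control and 500.1 and 583 CPM in the miR-148a line (adjusted p = 0.00405, or 0.267 without the block). The cholesterol exporter gene Abca1 (0.74 ± 0.19, adjusted p = 0.0266) and the methyltransferase gene Dnmt3b (0.35 ± 0.10, adjusted p = 0.0444) were higher, although Abca1 holds 2 7mer-m8 sites and 1 7mer-A1 site. The 3' UTR read for Tmed7, which fell, held no miR-148 site of any class. Arl6ip1 was the only list member that passed without the block.

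Bcl2l11 and Gadd45a are genes that the study is known to have followed as targets. Bcl2l11 encodes the pro-apoptotic protein Bim and lies at chr2:128126038-128162547 in GRCm38. Without stimulation it stood at 45.1 and 44.9 CPM in the control and 44.7 and 39.97 CPM in the miR-148a line, which gave -0.09 ± 0.12 on the log2 scale (adjusted p = 0.735). The miR-148a library of run 2 was the lowest of the 4, and the other 3 lay between 44.7 and 45.1 CPM. After anti-IgM the miR-148a line had less of it (-1.02, adjusted p = 0.000133), and the difference between both line differences was -0.93 ± 0.17 (adjusted p = 0.0605). Gadd45a, induced by DNA damage, stood at 0.998 and 0.451 CPM in the control and 1.84 and 0.922 CPM in the miR-148a line, and its log2 fold change of 0.90 ± 0.40 did not pass (adjusted p = 0.198). Gadd45a was counted 5 to 24 times per library, and its unadjusted p was 0.0388.

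Rises were ranked among called genes whose mean log2 CPM reached 1, without unnamed predicted genes. The 15 genes with the largest rise in the miR-148a line were mostly at low levels. Cdx1, a homeobox transcription factor gene known from the intestine, rose from 6.82 and 2.98 CPM to 27.5 and 16.3 CPM (2.13 ± 0.17, adjusted p = 1.98e-05). In both runs the miR-148a library lay above the control library of the same run, and the run 1 library was the higher of each line. Jup, which encodes the junction protein plakoglobin, stood at 3.93 and 4.06 CPM in the control and 11.8 and 11.9 CPM in the miR-148a line (1.56 ± 0.19, adjusted p = 0.000244), and the Wnt receptor gene Fzd6 at 3.05 and 3.43 and 8.58 and 8.92 CPM (1.45 ± 0.20, adjusted p = 0.000793). Both were close between replicates and apart between lines. Camk2n1, an inhibitor of the kinase CaMKII, rose from 9.92 and 7.49 to 23.4 and 20.1 CPM (1.30 ± 0.13), and Igfn1, known from muscle, from 6.71 and 8.84 to 20.9 and 17.5 CPM (1.33 ± 0.16). Cdx1, Jup, Fzd6, Igfn1 and Camk2n1 also passed without the block (adjusted p from 0.0218 to 0.0499), while the other 10 of the 15 did not.

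Among those 10, Npr2, a natriuretic peptide receptor gene, stood at 12.1 and 10.1 CPM in the control and 30.1 and 24.6 CPM in the miR-148a line (1.31 ± 0.14). Fcer2a, which encodes CD23, a surface receptor of mature B cells, rose from 2.55 and 1.62 to 6.21 and 5.38 CPM (1.42 ± 0.27). Pappa2, a protease gene of the insulin-like growth factor system, had one high library, with 14.9 and 4.46 CPM in the miR-148a line against 1.995 and 3.07 in the control (1.96 ± 0.40), and Vwa2, a matrix protein gene, likewise had 7.66 and 2.69 CPM against 1.88 and 1.805 (1.49 ± 0.31). In both genes the high library was replicate 1 of the miR-148a line. The signalling regulators Rgs12 and Farp2, the adhesion receptor gene Bai2, the actin-bundling protein gene Pls1, and Lonrf1 and Kbtbd13 had log2 fold changes of 1.45, 1.33, 1.36, 1.34, 1.34 and 1.32, with adjusted p from 0.00386 to 0.0281.

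The next falls were ranked among called genes whose mean log2 CPM reached 1, without unnamed predicted genes. Outside the class II genes and those with an 8mer, the largest of them were in 6 genes at low levels. Ipcef1, which encodes a partner of cytohesins, fell from 5.82 and 6.32 to 1.53 and 1.92 CPM (-1.82 ± 0.22, adjusted p = 0.000232) and also passed without the block (adjusted p = 0.0218). The genes of 2 ion channel proteins, the potassium channel Kcnk10 and the calcium channel subunit Cacnb4, fell, with log2 fold changes of -1.64 ± 0.33 and -1.55 ± 0.22. Slc6a12, a betaine and GABA transporter gene, stood at 5.15 and 5.23 CPM in the control and 1.61 and 1.999 CPM in the miR-148a line (-1.54 ± 0.24), Robo1, a Slit receptor gene, at 5.99 and 5.505 and 2.76 and 1.84 CPM (-1.31 ± 0.28), and the carbonic anhydrase gene Car13 at 4.6 and 3.07 and 1.46 and 1.61 CPM (-1.29 ± 0.34). These 5 did not pass without the block (adjusted p from 0.0513 to 0.370).

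**Figure D4:**
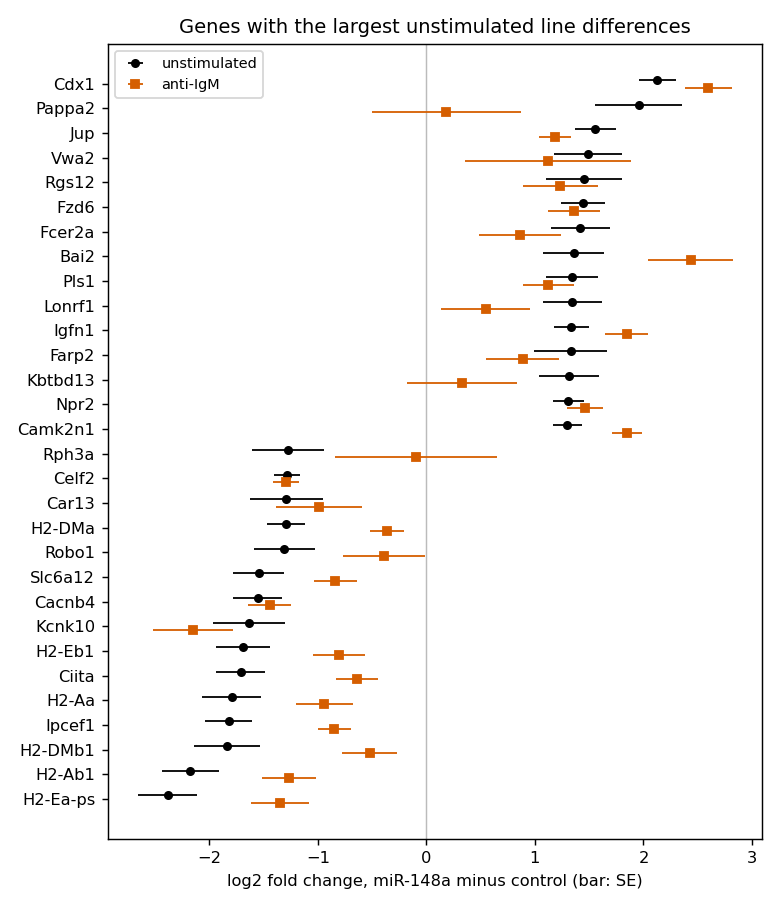
Log2 fold change, miR-148a minus control (x axis, bars 1 SE) for the 15 genes with the largest rise and the 15 with the largest fall without stimulation (black circles), and the same genes with anti-IgM (orange squares). They were ranked among called genes whose mean log2 CPM reached 1 and whose runs had the same sign, without unnamed predicted genes. Genes such as Cdx1, Celf2 and Kcnk10 lie far from 0 in both conditions, and Pappa2 and Rph3a lie near 0 with anti-IgM (0.18 and -0.10).

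The called genes of the unfolded protein response, mostly chaperone and folding genes, were lower in the miR-148a line. This response raises chaperones and folding enzymes of the endoplasmic reticulum and is large in cells that secrete antibody. Of 21 tested members of the list 9 fell and none rose, against 3.37% of all genes tested that fell, with a median of -0.30 (-0.28 in each run). Calr, which encodes the chaperone calreticulin, fell from 1582 and 1501 CPM to 986 and 947 CPM (-0.67 ± 0.07, adjusted p = 8.91e-05), and Hsp90b1, the chaperone GRP94, from 3684 and 3315 to 2422 and 2369.8 CPM (-0.54 ± 0.09, adjusted p = 0.00194). The chaperone gene Hspa5 fell from 2428 and 2343 to 1852 and 1754 CPM (-0.40 ± 0.10, adjusted p = 0.029). In these 3 genes the libraries of the lines did not overlap, as in 44.3% of all genes tested.

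The other folding and quality control genes that fell were Sdf2l1 (-0.51 ± 0.12), Creld2 (-0.46 ± 0.09), Manf (-0.45 ± 0.08), Herpud1 (-0.42 ± 0.09) and Pdia4 (-0.30 ± 0.08). Xbp1, a transcription factor of this response and of plasma cells, fell from 119 and 121 to 97.8 and 97.5 CPM (-0.30 ± 0.08, adjusted p = 0.0432). The members of the PERK and amino acid branch, Atf4, Ddit3, Trib3, Chac1, Asns, Atf5, Sesn2 and Ppp1r15a, were not called, with log2 fold changes from -0.44 to 0.06. The folding enzyme gene Pdia6 was not called either (-0.23 ± 0.08, adjusted p = 0.106). Summed over the list, CPM were 12659 and 12201 in the control and 9415 and 9266 in the miR-148a line. Of the 9 genes 3 hold a 7mer site and Hspa5 an 8mer. Without the block only Calr passed (adjusted p = 0.0218), and leaving out 1 of the 4 unstimulated libraries left 1 to 6 members lower.

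Genes of B cell receptor signalling changed in both directions, by small amounts. Of 31 tested members 6 fell and 3 rose, with a median of -0.12, beside 3.37% lower and 3.91% higher over all genes tested. The inhibitory Fc receptor gene Fcgr2b fell from 52.2 and 45.3 CPM to 23.4 and 33.3 CPM (-0.81 ± 0.14, adjusted p = 0.00263), the complement receptor gene Cr2 from 26.4 and 27.6 to 16.01 and 21.2 CPM (-0.57 ± 0.15), and Cd5, a negative regulator, from 36.1 and 28.3 to 20.9 and 25.5 CPM (-0.49 ± 0.14). In each of these the control libraries lay above the miR-148a libraries, while 44.3% of all genes tested were without overlap in either direction. Also lower were the adaptor gene Blnk (-0.37 ± 0.09), the phosphatase gene Ptprc (-0.32 ± 0.07) and the kinase gene Btk (-0.27 ± 0.07). The kinase genes Prkcb (0.39 ± 0.08) and Syk (0.26 ± 0.07) and the receptor chain gene Cd79b (0.26 ± 0.07) were higher. Plcg2 and Ptpn6, the most abundant members not called, had log2 fold changes of 0.01 ± 0.07 and 0.07 ± 0.07. None of the 31 passed without the block.

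Of 24 tested B lineage transcription factor genes 3 were higher, Foxp1 (0.43 ± 0.07), Spib (0.39 ± 0.07) and Pax5 (0.31 ± 0.08), and 2 lower, Xbp1 and Mef2c (-0.27 ± 0.07). Pax5 stood at 148.3 and 209 CPM in the control and 195 and 244 CPM in the miR-148a line, so the control library of run 2 lay above the miR-148a library of run 1, and the difference shows only within runs (adjusted p = 0.0369, 0.76 without the block). Ikzf1 and Irf4 were not called (0.04 ± 0.06 and -0.03 ± 0.11). Of 20 surface maturation and activation markers 3 rose and 3 fell. The counts of both lists stand beside 3.37% lower and 3.91% higher over all genes tested. Besides Fcer2a, the death receptor gene Fas (0.66 ± 0.18) and Cd24a (0.31 ± 0.07) rose, while Spn, which encodes CD43, fell from 19.2 and 12.4 to 12.03 and 8.07 CPM (-0.65 ± 0.13), and Tnfrsf13c, the BAFF receptor gene, from 167 and 191 to 116 and 160.4 CPM (-0.39 ± 0.08). Tnfrsf13b, which encodes the related receptor TACI, fell too (-0.37 ± 0.09). The immunoglobulin and recombination list had 3 tested members and none called, and its heavy and light chain constant genes were not analysed here.

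The called genes of the cell death and cell cycle lists are given here, beside 7.29% called of all genes tested. Whether these lists differ from that share was not tested. Among 9 pro-apoptotic BCL2 family genes Bak1 fell (-0.52 ± 0.10, adjusted p = 0.00506) and Pmaip1, which encodes Noxa, rose (0.40 ± 0.08, adjusted p = 0.00541), while Bid and Bax did not pass (0.02 ± 0.08 and -0.14 ± 0.11). Pmaip1 stood at 98.4 and 75.4 CPM in the control and 131 and 98.3 CPM in the miR-148a line, so the groups overlapped and its difference shows only within runs. Neither gene passed without the block (adjusted p = 0.26 for Bak1 and 0.592 for Pmaip1). None of 11 anti-apoptotic genes was called. The most abundant of them were Mcl1 at 0.15 ± 0.07 and Bcl2 at -0.22 ± 0.08. Of 25 mitosis genes 2 fell, Ccnf (-0.47 ± 0.08) and Aurkb (-0.42 ± 0.09), each of which holds an 8mer, and of 30 DNA replication genes 1, Pola1 (-0.27 ± 0.08). None of 25 ribosome biogenesis genes was called. Medians of these lists lay between -0.09 and 0.02, and no member of any of them passed without the block.

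A few genes of the growth arrest and stress lists rose and none fell, beside 3.91% of all genes tested that rose. Of 16 CDK inhibitor and growth arrest genes Btg2 (0.37 ± 0.10) and Cdkn2c (0.35 ± 0.10) rose, and of 22 p53 targets Fas, Btg2 and Pmaip1, so that Btg2, Fas and Pmaip1 stand in more than 1 list. The median was -0.05 for the CDK inhibitor list, where 10 of 16 genes lay below 0, and 0.04 for the p53 targets. Not called were Cdkn1b (-0.31), Ccng1 (-0.25) and Txnip (-0.21). Of 16 FOXO targets 3 rose, with a list median of 0.19. S1pr1, a receptor that guides lymphocyte exit from tissue, went from 11.6 and 8.03 CPM to 21.5 and 24.5 CPM (1.20 ± 0.18, adjusted p = 0.00151) although its 3' UTR holds an 8mer. Klf2, a transcription factor gene of quiescent lymphocytes, went from 44.3 and 39.7 to 56.7 and 66.3 CPM (0.53 ± 0.13), and the insulin receptor gene Insr from 54.8 and 54.1 to 82.7 and 86.1 CPM (0.63 ± 0.10). In all 3 each miR-148a library lay above each control library, while 44.3% of all genes tested were without overlap in either direction. None of these list members passed without the block.

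**Figure D5:**
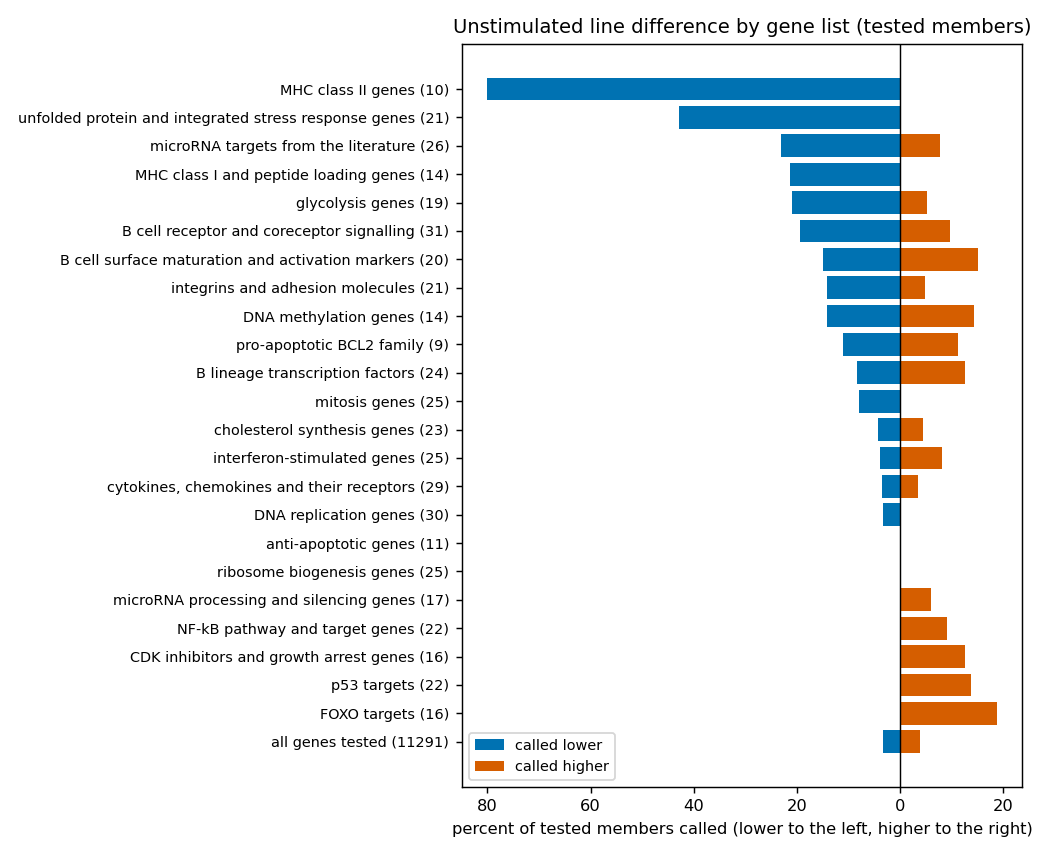
Percent of the tested members (number in brackets) of each gene list called lower (blue, to the left) or higher (orange, to the right) in the miR-148a line without stimulation, for lists with at least 9 tested members. MHC class II genes reach 8 of 10 lower, and the bottom bar gives all 11291 genes tested, 3.37% lower and 3.91% higher.

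In glycolysis, 4 of 19 genes fell and 1 rose, beside 3.37% and 3.91% of all genes tested. Pkm, the last enzyme of the pathway, fell from 1009.7 and 930.0 CPM to 724 and 786 CPM (-0.36 ± 0.08), and Eno1, Aldoa and Gpi1 fell with log2 fold changes of -0.38, -0.28 and -0.25. Pdk1, a kinase that holds back pyruvate oxidation, rose (0.45 ± 0.09). Gapdh and Ldha were not called (-0.18 ± 0.07 and 0.03 ± 0.07). Cholesterol synthesis had 1 of 23 lower, Idi1 (-0.47 ± 0.08), which holds an 8mer, and 1 higher, Insig1 (0.46 ± 0.11). None of these genes passed without the block.

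Of 21 integrin and adhesion genes 3 fell, Alcam (-1.10 ± 0.17), Cd84 (-0.64 ± 0.17) and Itga4 (-0.56 ± 0.09), and Itga6 rose (1.05 ± 0.20). Itga4, a chain of the VLA-4 integrin, stood at 257 and 285 CPM in the control and 159 and 211 CPM in the miR-148a line, and its 3' UTR holds an 8mer. Of 29 cytokine, chemokine and receptor genes, the TNF receptor gene Tnfrsf1b fell (-1.08 ± 0.20) and the lymphotoxin beta gene Ltb rose (0.59 ± 0.11). Ltb and Nfkb2 (0.40 ± 0.11) were the members of 22 in the NF-kB list that rose. Of 25 interferon-stimulated genes Irf7 (1.19 ± 0.23) and Gbp2 (0.93 ± 0.22) rose and Isg20 (-0.49 ± 0.12) fell. These counts stand beside 3.37% lower and 3.91% higher over all genes tested, and no member of these 4 lists passed without the block.

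Of 14 genes of DNA methylation, Dnmt1 and Tdg (-0.44 ± 0.10), a glycosylase of demethylation, fell, and Dnmt3b and Tet3 (0.33 ± 0.09) rose. Tet3 stood at 49.05 and 71.1 CPM in the control and 61.3 and 90.1 CPM in the miR-148a line, so the groups overlapped and its difference shows only within runs. None of the 4 passed without the block (adjusted p = 0.267 for Dnmt1, 0.451 for Tdg, 0.305 for Dnmt3b and 0.758 for Tet3). Uhrf1, the partner of Dnmt1, stood at 473 and 494 CPM in the control and 495 and 537 CPM in the miR-148a line (0.09 ± 0.07) and was not called, although it holds an 8mer. Of 20 germline genes known to be kept silent by DNA methylation 14 were at 0 in all 4 libraries, and the 1 tested member, Brdt, was not called (0.79 ± 0.46, at most 1.38 CPM). Of 5 tested imprinted genes Plagl1 rose (0.73 ± 0.12). Among 17 genes of microRNA processing and silencing, Zc3h7b rose (0.29 ± 0.08) and none fell, with a median of 0.09. Neither Plagl1 nor Zc3h7b passed without the block (adjusted p = 0.0659 and 0.38). The counts of these lists stand beside 3.37% lower and 3.91% higher over all genes tested.

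Of the markers of other cell types, only Krt18 and Sdc1 were called. The T cell list summed to at most 0.665 CPM in any of the 4 libraries, the myeloid list to at most 0.812, the erythroid list to at most 2.08 and the fibroblast list to at most 0.615. Lyz2, S100a8, S100a9, Mpo, Cd14, Cd3g and Epcam were at 0 in all 4. The epithelial list summed to 5.87 and 4.69 CPM in the control and 12.3 and 12.6 CPM in the miR-148a line, and the plasma cell list to 2.49 and 2.71 and 3.52 and 3.15 CPM. Of the epithelial list, Krt18 rose from 5.82 and 4.69 CPM to 12.3 and 12.5 CPM (1.20 ± 0.20, adjusted p = 0.00289), while Krt8, Cdh1 and Epcam were at 0 or below the level of 3 counts. Of the plasma cell list, Sdc1 rose from 0.942 and 1.71 to 3.29 and 2.61 CPM (1.23 ± 0.34, adjusted p = 0.0419), and Igj was not called (-1.65 ± 0.54). Neither Krt18 nor Sdc1 passed without the block (adjusted p = 0.0513 and 0.263), and the part of such cells in the results was not tested.

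Called genes were not spread evenly over the chromosomes, described here without a test, while the medians of the autosomes and the X chromosome lay between -0.02 and 0.04. On the X chromosome 25 of 326 genes were lower (7.67%) and 5 higher (1.53%), and on chromosome 16 19 of 352 were lower (5.40%) and 6 higher (1.70%), beside 3.37% lower and 3.91% higher over all genes tested. With anti-IgM the X chromosome had 45 genes lower and 20 higher, and chromosome 16 had 38 lower and 12 higher. With called genes left out, the unstimulated X median was 0.01.

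The line difference was measured again in the 4 anti-IgM libraries, none of which enters the unstimulated difference, though the fit and its spread are shared. There 892 genes (7.9%) were higher and 930 (8.24%) lower in the miR-148a line. Higher in both conditions were 245 genes, 55.4% of the unstimulated and 27.5% of the anti-IgM list, and lower in both were 224, 58.8% and 24.1%. Only Pdgfb was higher without stimulation and lower with anti-IgM, and 1700088E04Rik and Fgd2 were the reverse. The 8mer genes were lower in 23.7% and genes with no site in 7.01% with anti-IgM. Of the 10 class II genes 4 fell there, H2-Ab1 (-1.27), H2-Aa (-0.94), H2-Eb1 (-0.81) and Ciita (-0.64), with a list median of -0.56. Their difference between conditions was 0.91 ± 0.37 for H2-Ab1 (adjusted p = 0.369) and 1.07 ± 0.30 for Ciita (adjusted p = 0.19) and did not pass. Calr (-0.50, adjusted p = 0.00039) was lower with anti-IgM too, and Hsp90b1 was not called there (-0.15).

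Only 11 genes (0.0974%) had a line difference that itself differed between conditions, 7 with a more positive and 4 with a more negative difference under anti-IgM. Klhl6, a gene of the B cell receptor response in germinal centres, fell from 85.02 and 82.9 CPM to 47.96 and 51.3 CPM without stimulation (-0.76 ± 0.09, adjusted p = 0.000182) and stood at 76.01 and 73.2 and 75.3 and 86.5 CPM with anti-IgM (0.13). Pdgfb, a growth factor gene, rose from 5.04 and 4.42 to 10.1 and 8.46 CPM without stimulation (0.95 ± 0.18) and went the other way with anti-IgM (-0.54, adjusted p = 0.0446). Its direction thus turned between conditions, with a difference of -1.50 ± 0.25 (adjusted p = 0.0413). Cyth4, a guanine nucleotide exchange factor gene, fell without stimulation (-0.56 ± 0.08) and was not called with anti-IgM (0.23). The transferrin receptor gene Tfrc was lower in both, with log2 fold changes of -0.28 without stimulation and -1.17 with anti-IgM. No gene passed this test without the block, by edgeR, where 484 had an unadjusted p under 0.05, while DESeq2 with the block called 31.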

How the data were processed

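PolyA-selected RNA of 8 libraries was sequenced, with libraries made by a directional kit, per the labels' protocols. The authors deposited 1 table of estimated counts (expected counts that need not be whole, not normalised) per gene symbol. Per the submitters' processing notes, the tools were TopHat2 2.0.13 with Bowtie2, cutadapt, CASAVA 1.8, edgeR and Partek 6.15.0730, and the builds mm10 and GRCm38, without their roles. Annotation and strand setting are not given in the sources, so reads of overlapping, antisense or near-identical genes may not have been told apart.

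Of 24081 rows, 27 with calendar dates in place of names (0.213% to 0.235% of each library) were left out. Counts were rounded and tested with edgeR 4.0.16 in R 4.3.3 (quasi-likelihood F test, TMM factors, filterByExpr) on all 8 libraries, with 4 group means and the run prefix of the labels (runs 1 and 2 here) as a replicate block, since the comparison is given as paired by run. P-values were adjusted (Benjamini-Hochberg) over 11291 genes, with a threshold of 0.05 and 3 residual degrees of freedom. On simulated data with 200 changed genes, drawn repeatedly from these libraries' means, the blocked edgeR fit recovered the sizes of change but made more false calls than the nominal rate in most draws, while DESeq2 and edgeR without the block stayed below it in every draw, so adjusted p-values near the threshold may be too small. The pairing itself came from the label prefix. As a check on it, same-numbered libraries deviated together for each of the 6 group pairs (r over genes from 0.495 to 0.569). The biological coefficient of variation was 5.98% with the block and 11.1% without. The labels do not say whether replicates were separate cultures, so the p-values cover only the spread among these libraries, perhaps technical. Replicates were further apart than sampling noise (mean chi-square per gene 9.78 to 14.0).

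Values with ± are log2 fold changes, miR-148a minus control, with SE. CPM are given as replicate 1 (run 1), then replicate 2 (run 2). Library totals ran from 5810227 to 18660373 counts, and floors of 3 counts cover counting error only. Seed sites were read from GENCODE M21 (GRCm38), where 393 of 24054 symbols found no match, and promoters and microRNAs from RefSeq (GRCm38.p6). Lists were described by counts and medians, without set tests. Named genes were the 15 largest rises and 15 largest falls among called genes whose mean log2 CPM reached 1 and whose runs had the same sign, without unnamed predicted genes, the study genes, up to 4 called and 2 uncalled members per list, the 8 largest falls with an 8mer and the largest differences between conditions. Hspa5, Herpud1, Manf, Pdia4, Cd79a, Cd79b, Syk, Btk, Blnk, Ptprc, H2-DMb2, Cd74, Cdc25b, Rock1, Gpi1, Mef2c, Cd24a, Tnfrsf13b, Nlrc5, Cdkn1b, Ccng1, Txnip and Fgd2 were added after their values were seen. The comparison and the lists were chosen with earlier results of these data known. Alternatives were no block, the libraries of 1 condition alone, DESeq2 1.42.0, other size factors, other filters and leaving out each library.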

Additional observations from a re-analysis of the deposited data

Results flagged for a closer look

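Of the genes tested for a line difference that differed between unstimulated and anti-IgM libraries, 11 passed with edgeR's quasi-likelihood interaction test. The value given for each is the line difference with anti-IgM minus that without, on the log2 scale. It was negative for Pdgfb (-1.50), Ccnb1ip1 (-0.92), Tfrc (-0.89) and Slc4a7 (-0.82), and positive for Ckm (0.63), Cnp (0.66), Ceacam1 (0.72), Lsp1 (0.74), Cyth4 (0.79) and Klhl6 (0.89). Ccnb1ip1, Slc4a7, Lsp1 and Ceacam1 were called with anti-IgM and not without. The fitted value of 1700088E04Rik was 7.72, but this gene had 0 counts in both unstimulated miR-148a libraries, so the fitted size depends on the prior count and is no bound. Against the level of 3 counts per library it was at least 3.33-fold lower there than in the control line, which stood at 0.72 and 0.812 CPM.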

How the results depend on the processing

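The unstimulated count of 823 genes depended on the run block, the tool and the libraries, while no called gene changed sign under any alternative. It was 55 without the replicate block, 396 with DESeq2 (165 higher, 231 lower), 1702 with the 4 unstimulated libraries alone and 1284 without a filter (517 higher, 767 lower), against 442 higher and 381 lower. Leaving out 1 library gave 94 to 1185 calls, with 94 and 302 when replicate 1 or 2 of the miR-148a line was dropped and 235 and 356 for the control line. Without a library the remaining one of its group is assumed to vary like the other groups. The anti-IgM count of 1822 was 284 without the replicate block, 983 with DESeq2 and 860 with the 4 anti-IgM libraries alone, and 430 to 2143 without 1 library. The count of 11 differences between conditions was 0 without the replicate block, 31 with DESeq2 and 348 without a filter, and 0 to 374 without 1 library (0 without replicate 2 of the unstimulated miR-148a line, where 1245 genes had an unadjusted p under 0.05). Other size factors and a stricter filter kept all 3 counts within 1.5 times. Of 96 called genes named by the rule, 82 lost their call without the block, 29 with DESeq2, and 40 to 72 without 1 of the 4 unstimulated libraries. The plasma cell list had a median of -0.21 over 2 genes and 1.23 under the stricter filter, which left Sdc1 alone. The counts of lower genes by seed class under each setting were added after seeing the data: with DESeq2 49 of 468 genes with an 8mer (10.5%) and 121 of 8377 with no site (1.44%) were lower. Counts at low levels limit genes under about 1 CPM.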

Other observations

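Kcnq1ot1, an antisense RNA of the imprinted Kcnq1 region, differed by run, and no line difference was called. In the unstimulated libraries it stood at 26.7 and 234 CPM in the control line (run 1, then run 2) and at 31.3 and 207 CPM in the miR-148a line, so both libraries of run 2 lay far above both of run 1. Its line difference was -0.02 ± 0.10 (adjusted p = 0.948, edgeR with the run as a block). Whether the counting told it apart from the overlapping gene on the other strand is not given in the sources used here.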
